A study of Homo sapiens with 10 samples.

Results

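The inflammatory cytokine, chemokine and IL6-family ligand genes IL6, IL11, LIF, CLCF1, CXCL8, CXCL1, CXCL2, CCL2 and CSF1 were followed in U2OS cells after knockdown of the helicase DDX41. These 9 genes were taken by name from the 63299 genes of the count tables, of which 32705 had at least 1 count in any of the 10 libraries and 16143 passed the filter on low counts. U2OS is an established human osteosarcoma cell line, and the cells were grown in DMEM with 10% FBS. One group received control siRNA (siCtrl) and the other a pool of siRNAs against DDX41 (siDDX41), and both were harvested 48 h later. Each group held 5 libraries of polyadenylated RNA. Because the siRNAs were pooled, the effects of single siRNAs cannot be told apart. In these bulk samples, fewer cells that make a transcript and less RNA per cell cannot be told apart either.

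IL6, IL11, LIF and CLCF1 are secreted ligands of the IL6 family. They bind receptor chains that include IL6R, IL11RA, LIFR and CNTFR, and the complexes signal through the shared chain IL6ST to JAK kinases and STAT3. In bone, IL6, IL11 and LIF made by cells of the osteoblast lineage promote the formation of osteoclasts, and CSF1 is the growth factor that keeps macrophages and osteoclast precursors alive. CXCL8, CXCL1 and CXCL2 attract neutrophils through CXCR1 and CXCR2, and CCL2 attracts monocytes through CCR2. Promoters of several of these genes are textbook targets of NF-kB, AP-1 and C/EBP factors, and their short-lived mRNAs are bound by AU-rich element and stem-loop binding proteins.

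Between 23393764 and 24598860 reads were counted per siCtrl library, and between 21807041 and 24896398 per siDDX41 library. The targeted gene DDX41 stood at 48.7 ± 1.43 CPM (read counts divided by the scaled library size, SD, n = 5) in siCtrl and at 12.2 ± 1.00 CPM (SD, n = 5) in siDDX41 cells, with no overlap between the groups. Of the 5 osteoblastic markers RUNX2, ALPL, COL1A1, SPARC and CDH11, each was detected, and their summed level was 4769 ± 90.5 CPM in siCtrl and 5032 ± 161 CPM in siDDX41 cells (SD, n = 5). The 8 markers of blood and endothelial cells summed to between 1.92 and 2.74 CPM in siCtrl and between 1.04 and 1.45 CPM in siDDX41 libraries, and CD3E and TYROBP had 0 counts throughout. Replicate numbers are given in the labels without a statement that they mark separate cultures, so the p-values below measure the spread between these libraries, which may be technical.

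The promoters of the ligands are shown first, because those of CXCL8, CXCL1 and CXCL2 carry the same NF-kB-type letters, and CXCL8 alone of these had more than single reads. The set of RefSeq promoters (GRCh38.p14) used here covered 5 of the 9 genes. It did not include LIF, CLCF1, CCL2 and CSF1, so their promoters were not examined. Each sequence is the 250 bases before the RefSeq start, written 5′ to 3′ on the strand of the gene. Capitals mark matches on either strand to GGNNTTTCC (NF-kB type), TGANTCA (AP-1), TTGCNNAA (C/EBP) or TATAAA (a core promoter element). The window of IL6 lies on the plus strand at chr7:22726950-22727199, that of IL11 on the minus strand at chr19:55370464-55370713, that of CXCL8 on the plus strand at chr4:73740319-73740568, that of CXCL1 on the plus strand at chr4:73869143-73869392 and that of CXCL2 on the minus strand at chr4:74099196-74099445. The RefSeq starts of IL6, CXCL8 and CXCL2 lie inside the gene spans printed with the counts, so the window of IL6 falls within its span and those of CXCL8 and CXCL2 overlap theirs.
IL6: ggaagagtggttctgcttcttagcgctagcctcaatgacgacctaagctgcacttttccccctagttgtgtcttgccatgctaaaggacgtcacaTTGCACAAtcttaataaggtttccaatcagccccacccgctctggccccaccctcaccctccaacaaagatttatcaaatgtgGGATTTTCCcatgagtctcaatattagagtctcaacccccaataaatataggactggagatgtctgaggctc
IL11: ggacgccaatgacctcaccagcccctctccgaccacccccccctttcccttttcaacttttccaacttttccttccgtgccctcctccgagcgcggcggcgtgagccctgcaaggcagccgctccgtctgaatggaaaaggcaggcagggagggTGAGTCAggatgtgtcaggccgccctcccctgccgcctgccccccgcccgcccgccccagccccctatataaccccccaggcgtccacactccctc
CXCL8: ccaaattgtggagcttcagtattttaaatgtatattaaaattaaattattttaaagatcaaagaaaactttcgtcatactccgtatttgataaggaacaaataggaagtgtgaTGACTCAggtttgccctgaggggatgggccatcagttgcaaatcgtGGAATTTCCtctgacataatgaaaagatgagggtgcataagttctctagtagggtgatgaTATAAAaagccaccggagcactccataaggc
CXCL1: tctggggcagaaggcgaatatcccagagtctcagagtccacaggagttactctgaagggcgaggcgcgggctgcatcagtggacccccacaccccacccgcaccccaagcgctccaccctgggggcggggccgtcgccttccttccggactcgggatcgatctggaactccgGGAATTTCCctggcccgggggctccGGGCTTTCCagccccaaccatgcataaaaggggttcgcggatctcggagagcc
CXCL2: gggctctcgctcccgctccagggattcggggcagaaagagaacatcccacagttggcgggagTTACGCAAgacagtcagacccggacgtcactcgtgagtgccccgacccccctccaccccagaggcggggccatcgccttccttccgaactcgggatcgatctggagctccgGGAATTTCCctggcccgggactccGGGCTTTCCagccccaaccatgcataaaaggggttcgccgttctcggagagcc

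The letters GGNNTTTCC stood in 4 of these 5 promoters, those of IL6, CXCL8, CXCL1 and CXCL2, and in 5.48% of all 35116 promoters of the same length. In CXCL1 and CXCL2 they stood at 2 places each, as GGAATTTCC and GGGCTTTCC. The promoter of CXCL3, a related chemokine outside the 9 genes and not shown, held the same 2 matches. CXCL3 had 63 counts in siCtrl and 93 in siDDX41 libraries and was not called. In CXCL8 the match GGAATTTCC ran from 91 to 83 bases before the start, and in IL6 the match GGATTTTCC ran from 72 to 64 bases before it. TGANTCA was found in the promoters of CXCL8 and IL11 and in 6.57% of all promoters. TTGCNNAA was found in IL6 and CXCL2 and in 9.05% of all promoters, and TATAAA in CXCL8 and in 10.7% of all promoters. TGACGTCA (CRE) was in none of the 5 and in 1.65% of all. No 2 of these motifs overlapped in a promoter shown. A match of letters is a description of the window and no evidence of binding. The genes were chosen by name, and CXCL1 and CXCL2 held the same NF-kB-type letters at nearly the same distances. No enrichment is therefore read from these counts.

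Of the 9 genes, 6 passed the filter on low counts, and 3 of them were called up and 3 down at an adjusted p-value under 0.01 (quasi-likelihood test of edgeR, p-values adjusted by Benjamini-Hochberg). Among all tested genes, 30.3% were called up and 32.1% down, so the calls on the members stand against a background in which 62.4% of genes were called. The chemokines CXCL8 and CCL2 and the growth factor CSF1 rose, and the IL6-family ligands IL11, CLCF1 and LIF fell. IL6, CXCL1 and CXCL2 had too few counts for the test. In 5 of the 6 tested members the groups did not overlap, 3 with siDDX41 above siCtrl and 2 below it, where 26.7% and 29.3% of all tested genes, 55.9% together, were separated in these directions.

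IL11 (ENSG00000095752.6, chr19:55364382-55370463, minus strand) encodes an IL6-family ligand that acts on stromal and bone cells. In siCtrl libraries 1 to 5 it stood at 11.1, 11.1, 10.4, 11.2 and 11.1 CPM, and in siDDX41 libraries 1 to 5 at 6.67, 7.60, 6.53, 6.43 and 6.34 CPM. Every siDDX41 library lay below every siCtrl library. The level was thus 1.64-fold lower in siDDX41 cells (log2 fold change -0.71, standard error 0.07, 95% interval -0.85 to -0.57, adjusted p = 1.77e-10, edgeR). Between 145 and 273 reads per library stand behind these values.

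CLCF1 (ENSG00000175505.10, chr11:67364168-67374177, minus strand), a ligand of the CNTF receptor, changed in the same direction. Its levels in siCtrl libraries 1 to 5 were 13.4, 12.9, 10.6, 13.3 and 11.8 CPM, and in siDDX41 libraries 1 to 5 they were 6.16, 7.86, 7.34, 7.62 and 6.81 CPM. The groups were separated, with the lowest siCtrl library still above the highest siDDX41 library. CLCF1 had the largest estimated decrease among the members tested, 1.73-fold (log2 fold change -0.79, standard error 0.08, 95% interval -0.95 to -0.63, adjusted p = 2.15e-10, edgeR). Its interval overlapped that of IL11, and the difference between them was not tested. The annotated readthrough gene that shares 61 exon bases with CLCF1 on the same strand had 0 counts.

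LIF (ENSG00000128342.4, chr22:30240453-30246759, minus strand), which signals through LIFR and IL6ST, had the most reads of the 9 genes. It stood at 150.3, 153, 149, 146 and 150.1 CPM in siCtrl libraries 1 to 5 and at 128, 147, 135, 132 and 136 CPM in siDDX41 libraries 1 to 5. siDDX41 library 2 lay just inside the siCtrl range, and the other siDDX41 libraries lay below it. The decrease was small, 1.10-fold, and passed the test (log2 fold change -0.14, standard error 0.03, 95% interval -0.21 to -0.08, adjusted p = 0.000273, edgeR). The antisense genes LIF-AS1 and LIF-AS2, which share 86 and 83 exon bases with LIF, had 0.331% and 0.497% as many counts as LIF.

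IL6 itself (ENSG00000136244.11, chr7:22725884-22732002, plus strand), the founding ligand of the family, was near the detection limit. Its counts were 7, 11, 6, 3 and 9 in siCtrl libraries 1 to 5 and 8, 9, 13, 14 and 15 in siDDX41 libraries 1 to 5. In CPM these were 0.286, 0.449, 0.252, 0.128 and 0.375 in siCtrl and 0.368, 0.391, 0.524, 0.596 and 0.639 in siDDX41 libraries. siDDX41 libraries 3 to 5 lay above all siCtrl libraries, and siDDX41 libraries 1 and 2 lay within the siCtrl range. The gene did not pass the filter, and a two-sided exact permutation test on this single value, not adjusted for other genes, gave a 1.69-fold higher mean (log2 ratio 0.76, p = 0.0397, n = 5 per group).
IL6 was not called by either fit that kept it, with an adjusted p of 0.0499 in edgeR without the filter and of 0.0944 in DESeq2. Leaving out any one of siCtrl libraries 1, 3 and 4 or siDDX41 libraries 3, 4 and 5 moved the exact permutation p to between 0.0635 and 0.0714. In GENCODE release 44, IL6 shares 428 exon bases with IL6-AS1 on the opposite strand, which had 113 counts over all libraries against 95 for IL6. The reads themselves were counted with release 25. The library kit keeps the strand, but the strand setting of the counting is not given in the sources used here. It is thus not known whether reads over the shared bases were counted for IL6, for IL6-AS1 or for neither.

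**Figure D1:**
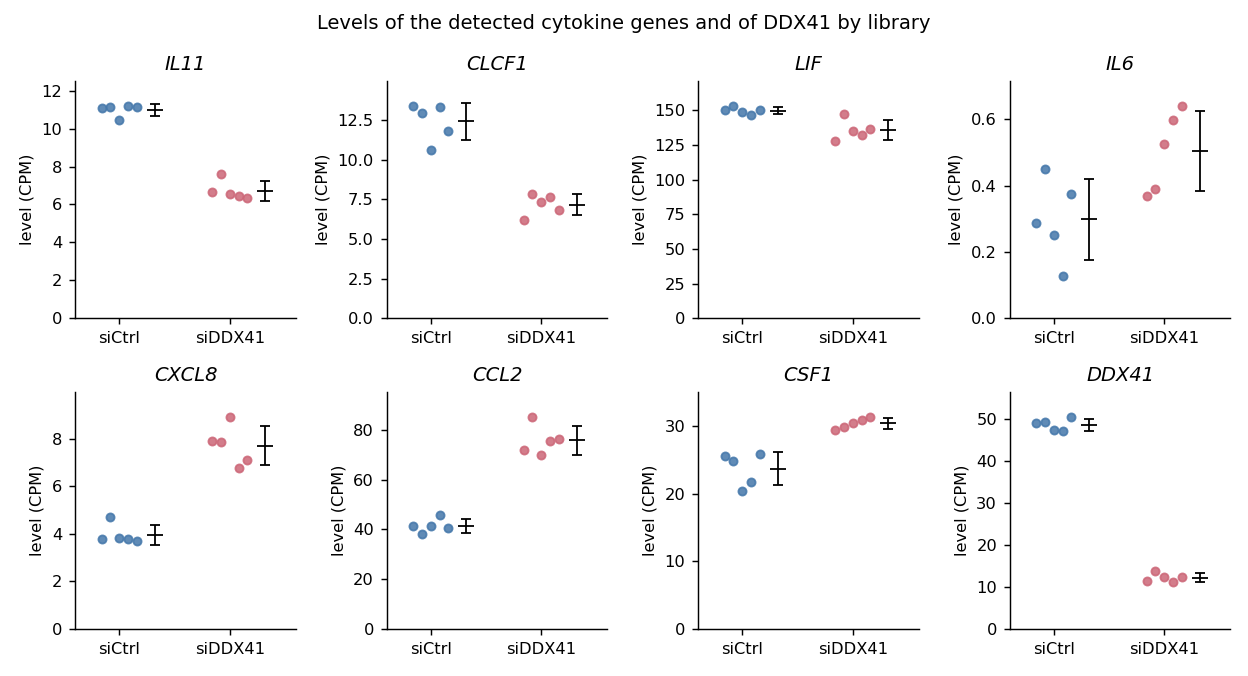
Level in CPM (vertical axes, starting at 0) of the 7 detected cytokine genes and of DDX41 in each of the 5 siCtrl (blue) and 5 siDDX41 (red) libraries, with the mean and SD of each group in black. IL11 and CLCF1 were lower and CXCL8, CCL2 and CSF1 higher in every siDDX41 library, LIF was lower with 1 library overlapping, and IL6 lay under 0.64 CPM throughout with overlapping groups.

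CXCL8 (ENSG00000169429.10, chr4:73740519-73743716, plus strand), the neutrophil attractant also known as IL-8, had the largest estimated increase among the members. Its levels were 3.80, 4.69, 3.83, 3.77 and 3.71 CPM in siCtrl libraries 1 to 5 and 7.91, 7.86, 8.91, 6.77 and 7.11 CPM in siDDX41 libraries 1 to 5. The groups were far apart, although siCtrl library 2 stood above the other siCtrl libraries. The level was 1.95-fold higher in siDDX41 cells (log2 fold change 0.96, standard error 0.09, 95% interval 0.77 to 1.15, adjusted p = 1.66e-10, edgeR). A change of at least this size in either direction was found in 9.42% of all tested genes.

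CCL2 (ENSG00000108691.9, chr17:34255274-34257208, plus strand), the monocyte attractant, also rose. It stood at 41.5, 38.2, 41.6, 45.9 and 40.6 CPM in siCtrl libraries 1 to 5 and at 72.0, 85.2, 70.0, 75.7 and 76.4 CPM in siDDX41 libraries 1 to 5. No siDDX41 library came near the siCtrl range. The increase was 1.83-fold (log2 fold change 0.87, standard error 0.05, 95% interval 0.76 to 0.98, adjusted p = 2.39e-12, edgeR).

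CXCL1 (ENSG00000163739.4, chr4:73869393-73871308) and CXCL2 (ENSG00000081041.8, chr4:74097040-74099196), close relatives of CXCL8 that share its receptor CXCR2, were not detected beyond single reads. CXCL1 had 1 count in siCtrl library 3 and CXCL2 had 1 count in siCtrl library 5, and both had 0 counts in each of the other libraries. At the depth of these libraries, a count of 0 allows a level of up to 0.120 to 0.138 CPM (3 counts of the library total, for counting error only), so a change below that level was not detectable. No stretch of 84 bases of the CXCL1 transcript occurs in a transcript of another gene, and 1.36% of such stretches of CXCL2 also occur in CXCL3.

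CXCL8, CXCL1 and CXCL2 lie in a cluster of 9 protein-coding chemokine genes at chr4:73740519-74099196 (358.7 kb). CXCL8 and CXCL3 were the only ones of these with enough counts to be tested. CXCL3, a further ligand of CXCR2, had 63 counts in siCtrl and 93 in siDDX41 libraries and was not called (log2 fold change 0.60, 95% interval 0.12 to 1.08, adjusted p = 0.0237, edgeR). CXCL5 had 29 and 28 counts, and CXCL6, PF4V1, PF4 and PPBP had at most 2 counts in a group. CCL2 likewise was the only tested gene of the 6 chemokine genes at chr17:34255274-34363233 (108 kb), where its neighbour CCL7 had 52 counts in siCtrl and 40 in siDDX41 libraries and CCL11, CCL8, CCL13 and CCL1 had at most 1.

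CSF1 (ENSG00000184371.13, chr1:109910242-109930992, plus strand) encodes the macrophage colony-stimulating factor. Its levels were 25.5, 24.8, 20.4, 21.8 and 25.9 CPM in siCtrl libraries 1 to 5 and 29.4, 29.9, 30.4, 30.9 and 31.3 CPM in siDDX41 libraries 1 to 5. The siDDX41 libraries lay close together and above all siCtrl libraries, which spread more widely. The increase was 1.28-fold (log2 fold change 0.36, standard error 0.05, 95% interval 0.25 to 0.47, adjusted p = 1.09e-06, edgeR).

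The members were next ordered by level per length, as CPM per kb of the Ensembl canonical transcript, since CPM alone favors long transcripts. In siCtrl cells CCL2 came first with 56.1 ± 3.76, followed by LIF with 38.6 ± 0.61, CLCF1 with 7.28 ± 0.69, CSF1 with 5.93 ± 0.61, IL11 with 4.62 ± 0.13, CXCL8 with 2.41 ± 0.25 and IL6 with 0.264 ± 0.11 CPM per kb (SD, n = 5). The ranges of the neighbours CLCF1 and CSF1 overlapped, at 6.22 to 7.83 and 5.11 to 6.48 CPM per kb, and those of the other neighbours in this order did not. In siDDX41 cells the order was CCL2 with 102 ± 7.90, LIF with 35.0 ± 1.91, CSF1 with 7.61 ± 0.19, CXCL8 with 4.70 ± 0.50, CLCF1 with 4.20 ± 0.40, IL11 with 2.82 ± 0.21 and IL6 with 0.447 ± 0.11 CPM per kb (SD, n = 5).
CXCL8 thus moved from below IL11 and CLCF1 to above IL11, and its range of 4.12 to 5.43 CPM per kb overlapped that of CLCF1, 3.62 to 4.61. The order depended in part on the length used. With the length of all annotated exons, LIF stood above CCL2 in siCtrl cells (38.6 against 21.5 CPM per kb) and below it in siDDX41 cells (35.0 against 39.2 CPM per kb). With that length, CXCL8 also stood below CLCF1 in siDDX41 cells (2.98 against 3.90 CPM per kb).

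**Figure D2:**
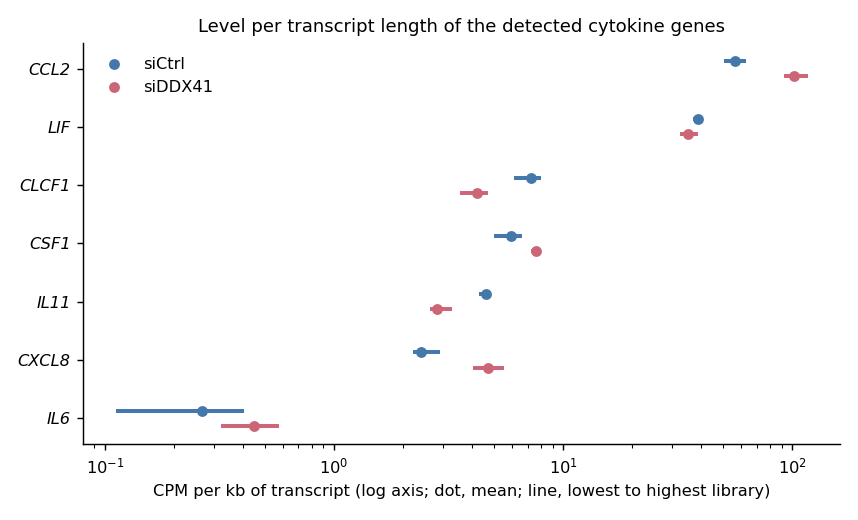
Level per transcript length of the 7 detected cytokine genes, in CPM per kb on a log axis, as the mean (dot) and the lowest to highest library (line) of the 5 siCtrl (blue) and 5 siDDX41 (red) libraries. CCL2 and LIF lie well above the other genes in both groups, and CXCL8 passes IL11 in siDDX41 cells.

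Summed over the 9 genes, the level was 242 ± 3.94 CPM in siCtrl libraries, with a range of 236 to 246, and 264 ± 13.6 CPM in siDDX41 libraries, with a range of 250.2 to 286 (SD, n = 5). LIF gave 61.7% of the members' reads in siCtrl and 51.4% in siDDX41 cells, and CCL2 17.1% and 28.7%. The shares of CLCF1 and IL11 were 5.11% and 4.53% in siCtrl and 2.71% and 2.54% in siDDX41 cells. CXCL8 went from 1.63% to 2.93% and CSF1 from 9.75% to 11.5%. These are shares of reads, not of molecules, since the transcripts differ in length.

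Whether 2 members changed by different amounts was tested with the ratio of their counts within each library, which does not depend on library scaling. For 6 pairs, the log2 ratio of counts with 0.5 added was compared between the groups by a two-sided exact permutation test with Benjamini-Hochberg adjustment over the pairs, for which 0.00794 is the smallest p that 5 libraries against 5 allow. The log2 ratio of LIF to CLCF1 was 3.49, 3.56, 3.81, 3.46 and 3.66 in siCtrl libraries 1 to 5 and 4.37, 4.23, 4.20, 4.11 and 4.32 in siDDX41 libraries 1 to 5. It was higher in every siDDX41 library, by 0.65 on average (exact p = 0.00794, adjusted p = 0.0159). LIF thus fell less than CLCF1.

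The log2 ratio of IL6 to IL11 was -5.18, -4.57, -5.26, -6.22 and -4.82 in siCtrl libraries 1 to 5 and -4.10, -4.21, -3.59, -3.39 and -3.27 in siDDX41 libraries 1 to 5. It was higher in siDDX41 cells without overlap, by 1.50 on average (exact p = 0.00794, adjusted p = 0.0159), with 3 to 15 reads of IL6 per library behind it. The log2 ratio of IL6 to LIF differed by 0.93 and overlapped between the groups (exact p = 0.0238, adjusted p = 0.0357), and it lost the call at 0.05 without any one of siCtrl libraries 1, 3 and 4 or siDDX41 libraries 3, 4 and 5 (adjusted p 0.0595 to 0.0833).
The log2 ratio of CXCL8 to CCL2 was -3.39 ± 0.22 in siCtrl and -3.30 ± 0.22 in siDDX41 cells (SD, n = 5). The difference of 0.09 did not pass the exact test (p = 0.5, adjusted p = 0.6), which does not show that both chemokines changed alike. The pairs of CXCL1 with CXCL2 and with CXCL8 hold almost only the added 0.5 for CXCL1 and CXCL2, and no difference is read from them.

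**Figure D3:**
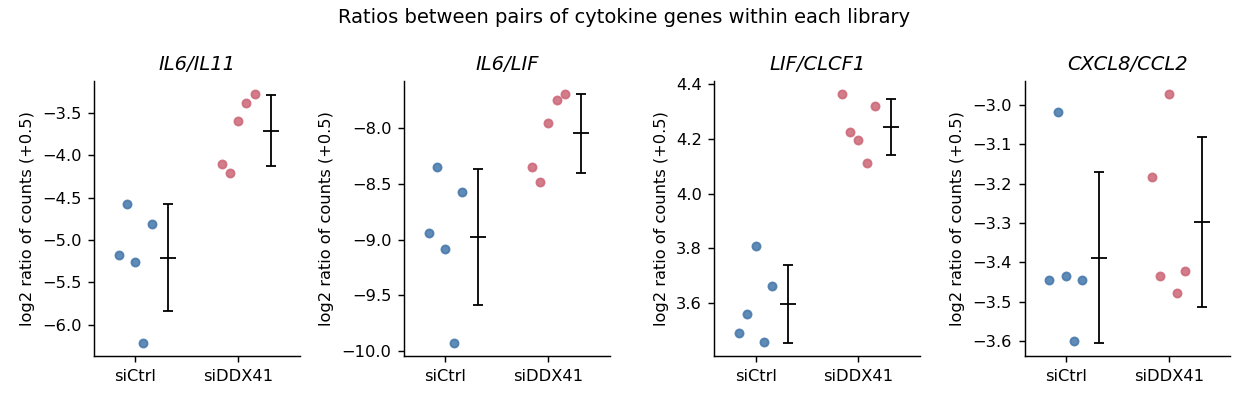
Log2 ratio of the counts (0.5 added to each) of 4 pairs of cytokine genes within each of the 5 siCtrl (blue) and 5 siDDX41 (red) libraries, with the mean and SD in black; each vertical axis has its own range and does not start at 0. The ratios IL6/IL11 and LIF/CLCF1 were higher in every siDDX41 library, and IL6/LIF and CXCL8/CCL2 overlapped between the groups.

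The receptors and signal carriers of the IL6-family ligands were read from the same fit. Of 13 such genes, all 13 were tested, 5 were called up and 6 down, with a median log2 fold change of -0.08 beside -0.0014 over all tested genes. Call counts of this list and of the lists below stand beside 30.3% called up and 32.1% called down among all tested genes. IL6ST, the signaling chain shared by the family, stood at 249.7, 249, 255, 246 and 238 CPM in siCtrl libraries 1 to 5 and at 463, 437, 468, 442 and 427 CPM in siDDX41 libraries 1 to 5. These groups were wide apart, and the log2 fold change was 0.85 (standard error 0.03, 95% interval 0.79 to 0.91, adjusted p = 5.4e-21, edgeR).
IL11RA, the binding chain for IL11, was in every siDDX41 library below the siCtrl range. It stood at 12.2, 12.6, 12.0, 11.6 and 11.7 CPM in siCtrl libraries 1 to 5 and at 5.38, 6.08, 6.49, 5.79 and 5.66 CPM in siDDX41 libraries 1 to 5 (log2 fold change -1.03, standard error 0.07, 95% interval -1.17 to -0.89, adjusted p = 5.49e-14, edgeR). For IL11, ligand and binding chain thus both fell while the shared chain rose.

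LIFR, the receptor chain of LIF and a part of the CLCF1 receptor, fell from 128 ± 4.78 to 98.6 ± 2.55 CPM (log2 fold change -0.38, adjusted p = 4.85e-12, edgeR). CNTFR, the binding chain for CLCF1, fell from 5.38 ± 0.83 to 3.05 ± 0.47 CPM (log2 fold change -0.82, adjusted p = 3.56e-07, edgeR). OSMR, the receptor chain for oncostatin M, rose from 196 ± 7.26 to 220.4 ± 9.32 CPM (log2 fold change 0.17, adjusted p = 2e-05, edgeR). IL6R, the binding chain for IL6, was at 7.41 ± 0.71 CPM in siCtrl and 7.57 ± 0.64 CPM in siDDX41 cells and was not called (log2 fold change 0.03, 95% interval -0.14 to 0.19, adjusted p = 0.759, edgeR).
Per length, OSMR and IL6ST had the highest levels of the receptor chains, with 35.5 ± 1.31 and 27.4 ± 0.67 CPM per kb in siCtrl and 39.9 ± 1.69 and 49.5 ± 1.91 CPM per kb in siDDX41 cells (SD, n = 5). IL6R stood at 1.29 ± 0.12 and 1.31 ± 0.11 CPM per kb, and its range in siDDX41 cells, 1.21 to 1.47, overlapped that of CNTFR, 1.24 to 1.77.

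Downstream, the transcription factor STAT3 rose from 204 ± 4.41 to 261 ± 7.65 CPM (log2 fold change 0.36, adjusted p = 1.51e-12, edgeR), and its feedback inhibitor SOCS3 fell from 40.2 ± 1.59 to 32.8 ± 1.39 CPM (log2 fold change -0.29, adjusted p = 2.65e-07, edgeR). The kinase JAK1 fell (log2 fold change -0.26), JAK2 rose (0.27) and TYK2 fell (-0.14). The TYK2 call was lost in DESeq2 (adjusted p = 0.0107) and without siCtrl library 2 or 5 or siDDX41 library 3 or 4. The phosphatase PTPN11, which relays signals of the shared chain, rose (log2 fold change 0.20). PIAS3, an inhibitor of STAT3, had a log2 fold change of -0.08 and was not called (adjusted p = 0.0194, edgeR), but it was called down with library totals in place of TMM factors (adjusted p = 0.0081) and without siCtrl library 2 (adjusted p = 0.0090).

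**Figure D4:**
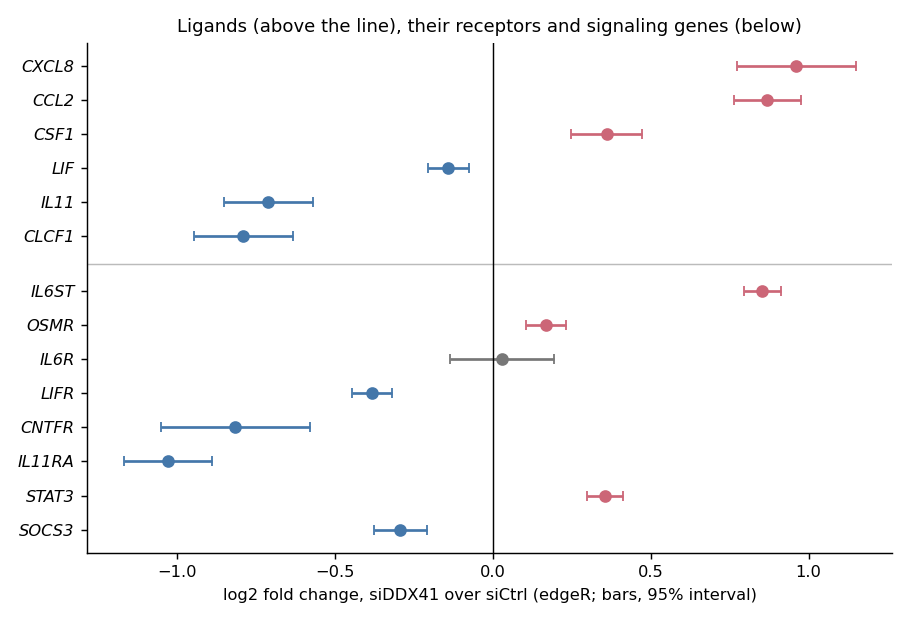
Log2 fold change (horizontal axis, siDDX41 over siCtrl, edgeR) with its 95% interval for the 6 tested ligand and chemokine genes above the line and for receptor chains, STAT3 and SOCS3 below it; red was called up, blue down and grey not called. CXCL8, CCL2, CSF1 and IL6ST lie right of 0, IL11, CLCF1, IL11RA and CNTFR left of it, and the interval of IL6R includes 0.

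The signaling receptors of CXCL8, CXCL1, CXCL2 and CCL2 were at or near 0 counts. CXCR1 had 0 counts in every library, CXCR2 had 13 counts in siCtrl and 10 in siDDX41 libraries, and CCR2 had 0 and 2. With scavenger receptors, proteoglycans and CSF1R they formed a list of 9 genes. CXCR1, CXCR2 and CCR2 were not tested, and the 5 tested genes were ACKR1, ACKR3, SDC1, SDC4 and CSF1R. Of these, 1 was called up and 4 down, with a median log2 fold change of -1.57, the value of ACKR3. The count called up was 2 without the filter on low counts, in DESeq2, without any one of the siCtrl libraries and without siDDX41 library 2. The scavenger receptor ACKR3 fell from 32.5 ± 1.62 to 10.9 ± 1.43 CPM (log2 fold change -1.57, adjusted p = 3.9e-18, edgeR), and ACKR1, a scavenger that binds CXCL8 and CCL2, fell from 1.98 ± 0.19 to 0.647 ± 0.15 CPM (log2 fold change -1.61, adjusted p = 1.72e-09, edgeR). The proteoglycan SDC1 fell (log2 fold change -0.54) and SDC4 rose (0.24), and both carry the heparan sulfate chains to which chemokines bind. CSF1R, the receptor of CSF1, had 71 counts in siCtrl and 22 in siDDX41 libraries (log2 fold change -1.62, adjusted p = 5.09e-05, edgeR). ACKR2, a scavenger of CCL2, had 23 and 71 counts, with no overlap in CPM, and did not pass the filter.

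Other IL6-family ligands formed a list of 6 genes, of which 3 were tested, 0 were called up and 2 down, with a median log2 fold change of -0.33. EBI3, a subunit of IL27, fell from 6.42 ± 0.77 to 2.38 ± 0.56 CPM (log2 fold change -1.42, adjusted p = 3.31e-11, edgeR). CTF1, which encodes cardiotrophin 1, fell from 7.98 ± 0.54 to 6.35 ± 0.87 CPM (log2 fold change -0.33, adjusted p = 0.00102, edgeR). CNTF had a log2 fold change of 0.57 and was not called (adjusted p = 0.0121, edgeR), although it passed the threshold in the fits without the filter, with the replicate number as a block, without siCtrl library 3 and without siDDX41 library 5. OSM, the neighbour of LIF on chromosome 22, had 5 counts in siCtrl and 2 in siDDX41 libraries.

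Among 17 other chemokines, 7 were tested, 1 was called up and 4 down, with a median log2 fold change of -0.82. CXCL14, a chemokine made by epithelial and stromal cells, stood at 251, 264, 291, 259 and 279 CPM in siCtrl libraries 1 to 5 and at 50.6, 79.5, 52.1, 58.2 and 72.1 CPM in siDDX41 libraries 1 to 5. It lay far lower in every siDDX41 library (log2 fold change -2.10, standard error 0.13, adjusted p = 3.23e-07, edgeR). CX3CL1, a membrane-bound chemokine, fell from 40.0 ± 0.76 to 22.6 ± 1.11 CPM (log2 fold change -0.82), and CCL26, an eosinophil attractant, from 9.93 ± 0.41 to 5.59 ± 0.66 CPM (log2 fold change -0.83). XCL1 also fell (log2 fold change -1.14). CCL20, named after its values were seen as the single chemokine of this list called up, went from 0.676 ± 0.21 to 1.55 ± 0.27 CPM (log2 fold change 1.19, adjusted p = 4.76e-06, edgeR). CCL3, CCL4 and CCL5 had 0 counts in every library.

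Of 16 other inflammatory cytokines and growth factors, 9 were tested, 3 were called up and 4 down, with a median log2 fold change of -0.33. IL15, which sustains natural killer and memory T cells, fell from 10.2 ± 0.65 to 4.25 ± 0.43 CPM (log2 fold change -1.27, adjusted p = 2.04e-14, edgeR). IL32 rose from 10.2 ± 0.64 to 18.3 ± 1.78 CPM (log2 fold change 0.84, adjusted p = 2.88e-12, edgeR), and the lymphocyte growth factor IL7 from 1.35 ± 0.17 to 2.60 ± 0.34 CPM (log2 fold change 0.94, adjusted p = 6.69e-07, edgeR). TNF and LTB had 0 counts in every library, and IL1B had 6 counts in siCtrl and 9 in siDDX41 libraries.

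The transcription factors that act on cytokine promoters formed a list of 19 genes, of which all 19 were tested, 10 were called up and 3 down, with a median log2 fold change of 0.24. Over all tested genes, 30.3% were called up and 32.1% down, 62.4% together. RELB rose from 10.2 ± 0.91 to 18.1 ± 1.35 CPM (log2 fold change 0.83), NFKB2 from 55.8 ± 2.97 to 81.3 ± 2.13 CPM (0.54), and NFKBIZ, a nuclear cofactor required for IL6 induction in many cells, from 29.9 ± 1.93 to 46.0 ± 3.34 CPM (0.62). The genes called down changed little, with log2 fold changes of -0.10 for RELA, -0.18 for CEBPB and -0.16 for FOSL2. The count of genes called down was 1 in DESeq2 and without siCtrl library 5 or siDDX41 library 4, and 2 without any one of the other libraries, without the filter on low counts, with the size factors of DESeq2 and with the replicate block.

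Regulators that bind AU-rich or stem-loop elements of cytokine mRNAs were all tested, and of these 14 genes 7 were called up and 2 down, with a median log2 fold change of 0.11. ZFP36L1, which promotes decay of AU-rich mRNAs, rose from 271 ± 7.34 to 403 ± 3.82 CPM (log2 fold change 0.57), and RC3H1, which binds stem-loops, from 35.6 ± 1.82 to 55.6 ± 3.13 CPM (0.64). TIA1, a translational silencer, fell from 114 ± 3.95 to 78.9 ± 4.20 CPM (-0.54). Of 11 inflammatory signal inhibitors, 9 were tested, 4 were called up and 2 down, with a median log2 fold change of 0.16. Both lists stand beside 30.3% called up and 32.1% called down over all tested genes. The NF-kB inhibitor NFKBIE rose from 13.5 ± 0.61 to 20.8 ± 1.72 CPM (log2 fold change 0.63). TNIP1, a partner of TNFAIP3, fell from 96.5 ± 4.29 to 41.2 ± 1.40 CPM (-1.23), and SOCS1, an inhibitor of JAK kinases, from 8.43 ± 0.61 to 3.23 ± 0.44 CPM (-1.38).

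Marker genes of the cells were set beside these results. Of 5 osteoblastic markers, 2 were called up and 2 down, among them SPARC, a bone matrix protein (log2 fold change 0.18), RUNX2, the master transcription factor of osteoblasts (-0.40), and ALPL, the bone alkaline phosphatase (-0.70). Of 8 blood and endothelial markers, 3 were tested, 0 were called up and 2 down, namely CSF1R and CDH5 (log2 fold change -1.49), and PTPRC was not called (0.69, adjusted p = 0.0228, edgeR). The summed level of these markers was 2.36 ± 0.33 CPM in siCtrl and 1.28 ± 0.19 CPM in siDDX41 cells (SD, n = 5). The part of these shifts in the cytokine levels was not tested.

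Among all tested genes, those whose level followed LIF most closely over the 10 libraries were LINC00942 (Pearson r of log2 CPM 0.98), ENSG00000262877 (0.97), ENSG00000267073 (0.97), ARHGEF40 (0.97) and ENTPD8 (0.97). LIF was used because it had the highest mean CPM of the members. The 10 libraries share the group difference, so these coefficients are a description. ARHGEF40, the most abundant of them, went from 214 ± 4.26 to 172 ± 12.6 CPM. Among the tested members, deviations from the group means correlated most highly for IL11 and LIF (r = 0.69 over 10 libraries) and were most opposed for CXCL8 and CCL2 (r = -0.50), again as a description.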

How the data were processed

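The authors prepared libraries with the TruSeq stranded mRNA kit from polyadenylated RNA and, per the labels and the paper's methods, aligned single reads with STAR (2.7) to hg38, using Gencode release 25. They counted reads per gene with featureCounts (1.6), and the deposited values are whole read counts, 1 table per library, without normalization. Neither the strand setting of the counting nor its treatment of multi-mapping reads is given in the sources used here.

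Groups came from the sample labels. Genes were joined to GENCODE release 44 by Ensembl identifier without version (89.97% of all identifiers matched). The test was run with edgeR 4.0.16 under R 4.3.3 (filterByExpr with a count minimum of 10, TMM factors, robust quasi-likelihood fit, Benjamini-Hochberg adjustment over 16143 genes, calls at adjusted p under 0.01). CPM used TMM-scaled library sizes. DESeq2 1.42.0 and limma 3.58.1 served as alternatives, and exact permutation tests used Python 3.11.15 with scipy 1.17.1. The biological coefficient of variation was 3.65%. Library pairs of a group differed beyond sampling noise (20 pairs, chi-square over degrees of freedom 1.76 to 5.67), so none was merged.

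Named genes are the 9 members, DDX41, up to 3 genes of each of 10 lists with the smallest adjusted p and the 5 genes most correlated with LIF. Some genes of the lists are not reported here. Other genes were named after their values were seen. The members and lists were chosen with earlier results of these data known. Promoters were RefSeq entries (GRCh38.p14). On simulated counts with 200 genes changed 1.5-fold among 16146 in this comparison, edgeR recovered 160 (80%) with 2 false calls. In the data 62.4% of tested genes were called, far more than were changed in the simulation, so these rates may not hold here.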

Additional observations from a re-analysis of the deposited data

Results flagged for a closer look

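In 84 groups of 5 values tested, 8 had a library that stood apart from the others by Dixon's 95% criterion, which chance alone reaches in about 1 in 20 groups. IL11 was low in siCtrl replicate 3 (10.4 CPM, the others 11.1 to 11.2) and high in siDDX41 replicate 2 (7.60 CPM, the others 6.34 to 6.67). CXCL8 was high in siCtrl replicate 2 (4.69 CPM, the others 3.71 to 3.83), and so was its log2 ratio to CCL2 there (-3.02, the others -3.60 to -3.43). In the same library STAT3 (197 CPM, the others 205 to 208) and SPARC (2750 CPM, the others 2812 to 2833) were low. SDC1 was high in siDDX41 replicate 4 (138 CPM, the others 133 to 134), and RUNX2 was high in siDDX41 replicate 2 (26.1 CPM, the others 24.1 to 24.4). Leaving out any of these libraries changed no call of these genes.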

How the results depend on the processing

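Each of the 6 tested members and DDX41 kept its direction and its call in all 17 alternatives (other scaling, no filter, DESeq2, voom, replicate block, a threshold of 0.05 and each library left out). The 3 members called up and 3 called down were counted in every one, and scaling moved the median of all genes by at most 0.013. With each library left out, between 4648 and 4823 genes were called up and between 4968 and 5121 down. For IL6 the log2 ratio was 0.75 without the filter (adjusted p = 0.0499, edgeR) and 0.77 in DESeq2 (adjusted p = 0.0944), neither past 0.01, and 0.56 to 0.95 with each library left out (exact p = 0.0317 to 0.0714). With each library left out, the difference of IL6/LIF ranged from 0.69 to 1.09. For CXCL1/CXCL2, which rests on 1 read each, it ranged from -0.40 to 0.40 around a main value of 0. IL6R, not called, had log2 fold changes of -0.029 to 0.059 with each library left out, and was below 0 without siCtrl replicate 3 and, at -0.0099, without siDDX41 replicate 1.

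Same-numbered libraries did not deviate together over all tested genes (mean correlation 0.0031, from -0.0524 to 0.0446, against -0.0008 for other numbers). What these libraries share beyond the number is not stated in the labels. With the replicate block, 4790 genes were called up and 5097 down. An exact sign-flip permutation test of the pair ratios, with 5 differences per pair, cannot go below p = 0.0625, so no pair could pass. Its adjusted exact p-values were 0.125 for IL6/IL11 (1.50), LIF/CLCF1 (0.65) and CXCL1/CXCL8 (-1.23, which rests on the added 0.5) and 0.188 for IL6/LIF (0.93). Depth limits IL6, CXCL1 and CXCL2. For CXCL1 and CXCL2, a library's count of 0 allows up to 0.138 CPM.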
